A study of Mus musculus with 24 samples.

Results

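The TNF superfamily ligands measured here are Tnf, Lta, Ltb, Fasl, Cd40lg, Tnfsf8, Tnfsf10, Tnfsf11 and Tnfsf14, 9 of the 17871 genes on the array. They were chosen by name, as every probe of the table that carries one of these gene symbols. Fasl and Cd40lg stand in the table under the older symbols Tnfsf6 and Tnfsf5 and were found through their identifiers, so that 7 ligands matched by current symbol and 9 in all, with 12 of the 25697 probes. Of these probes 11 were detected on at least 1 array, and 8 ligands could be tested. The single probe of Tnfsf10 (TRAIL, a death-inducing ligand) was not detected on any of the 24 arrays and stayed between 4.19 and 4.41 on the log2 scale.

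The study asked how loss of BAF180, the protein encoded by Pbrm1 and a subunit of the PBAF chromatin remodelling complex, changes gene expression in CD4+ T cells. RNA from 8 groups of 3 samples each was hybridised to Illumina mouse expression arrays. Resting Naive cells were CD4+CD62L+ cells sorted to 95% purity from mice 4 to 6 weeks old, and stimulated Naive cells were kept for 24 h with 1 µg/ml anti-CD3 and 2 µg/ml anti-CD28. Resting Th2 cells had been primed on the same antibodies with 10 ng/ml IL-4 and 10 µg/ml anti-IFN-gamma, with 100 U/ml IL-2 added at 24 h, and stimulated Th2 cells were then given 50 ng/ml PMA and 500 ng/ml ionomycin for 1.5 h. Each state was measured in WT and in BAF180-deficient cells. The deficient mice carried a floxed Pbrm1 allele deleted by a Cre transgene under the CD4 promoter, which acts in T cells from the thymus onward. The labels give Balb/c as the strain, whereas the methods describe a mixed B6-129 background. The 2 stimulations differ in agent, strength and length, so that stimulated Naive and stimulated Th2 cells differ in more than their differentiation. The p-values measure the spread between these samples, which according to the study came from pairs of mice.

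TNF superfamily ligands are mostly trimeric proteins of the cell surface, some of them released by proteases, that bind receptors of the TNF receptor superfamily on neighbouring cells. Receptors with a death domain can start apoptosis, and many receptors of the family recruit TRAF proteins and activate NF-kB. Activated helper T cells use these ligands to instruct B cells, dendritic cells, macrophages and bone cells, and to limit their own numbers. Transcription of several of them after T cell receptor signals depends on NFAT, AP-1 and NF-kB factors.

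Ltb, Tnf and Lta lie next to each other on mouse chromosome 17 (RefSeq annotation), and Tnfsf14 lies on the same chromosome beside Cd70 and Tnfsf9, other ligands of the superfamily. Fasl has Tnfsf18 and Tnfsf4 as neighbours on chromosome 1, and Tnfsf8 has Tnfsf15 on chromosome 4. Promoter sequence was matched for 8 of the 9 ligands. The 250 bases upstream of the annotated start are shown, 5′ to 3′ on the strand of the gene, for the 3 clustered genes, which moved in different directions on stimulation, and for Tnfsf11 and Tnfsf14, which stood with Tnf as the ligands with the highest fold changes in Th2 cells. Their positions on GRCm38.p6 are chr17:35202008-35202257 on the minus strand for Tnf, chr17:35205352-35205601 on the minus strand for Lta, chr17:35194257-35194506 on the plus strand for Ltb, chr14:78308044-78308293 on the minus strand for Tnfsf11 and chr17:57194182-57194431 on the minus strand for Tnfsf14. The reference is C57BL/6J, not the strain of these mice. Capitals mark matches on either strand to an NF-kB site (GGG, any 5 bases, then CC), to the letters TGANTCA of an AP-1 site and to GGAAA, the core of an NFAT site.
Tnf: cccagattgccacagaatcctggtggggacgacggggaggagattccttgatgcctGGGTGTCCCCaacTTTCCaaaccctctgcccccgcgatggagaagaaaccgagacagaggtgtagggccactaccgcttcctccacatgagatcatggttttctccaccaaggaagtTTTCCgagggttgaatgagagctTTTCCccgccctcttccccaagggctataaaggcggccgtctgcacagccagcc
Lta: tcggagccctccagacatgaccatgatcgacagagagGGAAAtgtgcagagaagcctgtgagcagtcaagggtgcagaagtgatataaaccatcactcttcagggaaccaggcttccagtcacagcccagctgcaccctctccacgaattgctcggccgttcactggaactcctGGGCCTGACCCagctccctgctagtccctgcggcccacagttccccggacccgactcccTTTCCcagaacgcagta
Ltb: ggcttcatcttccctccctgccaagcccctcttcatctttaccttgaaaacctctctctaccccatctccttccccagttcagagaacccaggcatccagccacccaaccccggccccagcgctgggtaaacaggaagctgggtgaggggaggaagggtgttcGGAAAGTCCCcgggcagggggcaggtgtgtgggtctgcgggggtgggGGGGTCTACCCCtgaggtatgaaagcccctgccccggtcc
Tnfsf11: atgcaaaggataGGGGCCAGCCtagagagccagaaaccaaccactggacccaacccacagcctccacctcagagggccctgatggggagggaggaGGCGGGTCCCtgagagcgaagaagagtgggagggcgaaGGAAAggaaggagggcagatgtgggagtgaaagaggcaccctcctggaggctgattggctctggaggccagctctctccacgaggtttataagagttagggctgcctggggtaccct
Tnfsf14: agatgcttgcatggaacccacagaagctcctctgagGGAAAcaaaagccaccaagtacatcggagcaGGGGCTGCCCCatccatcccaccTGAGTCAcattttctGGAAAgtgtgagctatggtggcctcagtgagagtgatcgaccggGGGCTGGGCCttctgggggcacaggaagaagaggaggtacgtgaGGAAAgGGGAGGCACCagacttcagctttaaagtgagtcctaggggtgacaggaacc

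The NF-kB letters were found in 6 of the 8 promoters (Tnf, Lta, Ltb, Fasl, Tnfsf11 and Tnfsf14), against 45.8% of 32851 mouse promoters of the same length. The NFAT core was found in 8 of 8, against 55.6%, and the AP-1 letters in 1 of 8 (Tnfsf14), against 6.75%. Matches can overlap, as in Ltb, where an NFAT core lies within an NF-kB match. A match describes the sequence and is not a measured binding site.

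The arrays detected between 8047 and 10689 probes each, and the resting Naive arrays detected 8047 to 9498. Replicate arrays correlated at 0.949 or above. Pbrm1 was lower in BAF180-deficient than in WT cells in every state, with no overlap between arrays, and the mean difference over the 4 states was −1.48 on the log2 scale (limma, adjusted p = 3.49e-07). All 7 T cell markers tested, Cd3d, Cd3e, Cd3g, Cd4, Cd5, Cd28 and Lck, were detected on every array. The summed log2 level of 7 Th2 markers was 8.75 to 9.24 in resting Naive cells, where 4 of the 7 were not detected, 9.93 to 11.56 in stimulated Naive cells, 10.43 to 11.35 in resting Th2 cells and 14.22 to 14.38 in stimulated Th2 cells. For 5 Naive T cell markers it was 11.46 to 12.08 in resting Naive and 10.99 to 11.89 in resting Th2 cells, which overlap. After stimulation it was 8.86 to 9.50 in Naive and 10.08 to 10.73 in Th2 cells. For 3 Th1 markers it was 8.04 to 8.75 in resting and 9.48 to 11.25 in stimulated Naive cells. In Th2 cells the Th1 markers gave 6.42 to 7.30 at rest and 10.56 to 11.50 after stimulation. The resting Naive arrays also carried RNA of other cells. The summed level of 8 myeloid genes was 11.75 to 13.42 there and 7.46 to 8.19 in the other states, and Lyz2, Tyrobp and Cd14 were detected only in resting Naive cells. For 9 B cell genes it was 13.42 to 14.18 against 9.04 to 11.18, and for 6 CD8 and NK cell genes 10.08 to 10.65 against 8.44 to 10.01. Genes of early activation were high as well (summed level of 5 genes 12.22 to 13.14 in resting Naive against 9.05 to 9.58 in resting Th2 cells). Their level was 11.63 to 12.25 in stimulated Naive and 11.67 to 12.28 in stimulated Th2 cells. The resting Naive arrays thus overlapped with or lay above the arrays of both stimulated states. Several ligands are also made by B cells, myeloid cells, CD8 and NK cells. All these values stand beside every comparison with resting Naive cells below, and their part in those results was not tested. In such bulk samples, fewer cells of a type and less RNA per cell cannot be told apart.

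Stimulation of Th2 cells raised 6 of the 7 ligands detected outside the stimulated Th2 arrays and lowered 1, Ltb, in both genotypes. Cd40lg was detected on those arrays alone and so could enter the tests only by being high there; with it the counts were 7 of 8 higher and 1 lower. In WT cells 13% of all 14246 probes tested were called higher and 14.3% lower (limma, adjusted p under 0.05), and in BAF180-deficient cells 12% and 13.8%. The median difference of the 7 ligands was 3.23 in WT and 2.77 in BAF180-deficient cells, and with Cd40lg 3.20 and 2.72, whereas the median over all probes was −0.00 in both. No array of the stimulated groups overlapped with an array of the resting groups for any of these ligands. The values below are log2 intensities after background correction and quantile normalisation, given for replicates A, B and C, and are compared only between groups for the same probe.

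**Figure D1:**
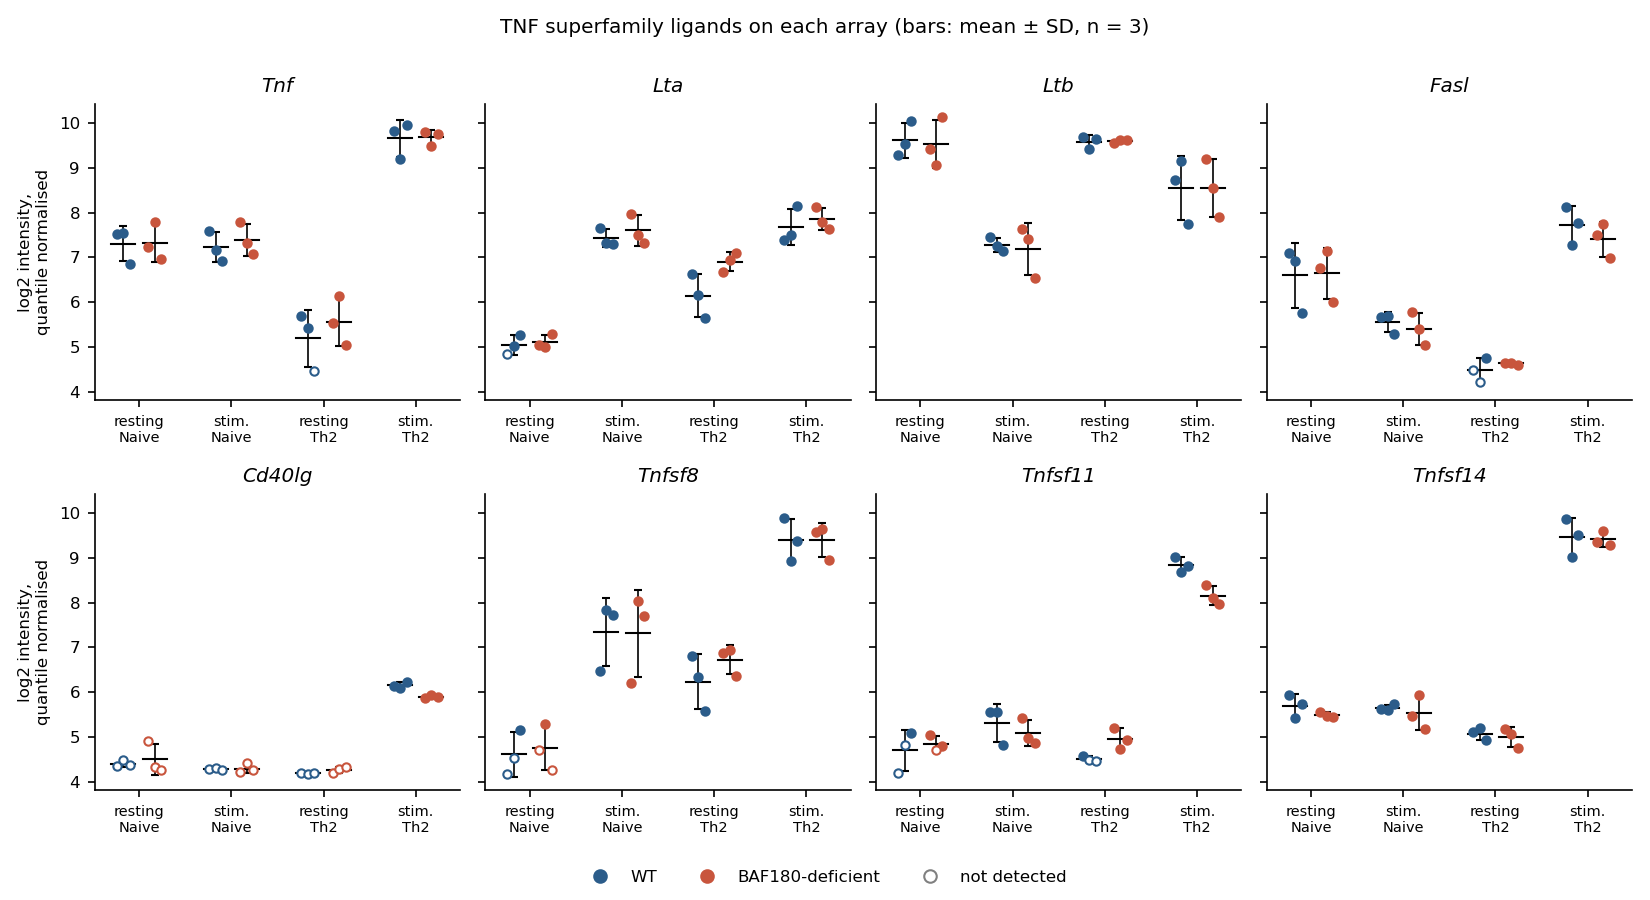
Log2 intensity of the 8 tested TNF superfamily ligands on each of the 24 arrays, by cell state (horizontal axis) and genotype (colour). Horizontal bars and whiskers give the mean and SD of 3 arrays, and open points were not detected above background. Tnf, Fasl, Cd40lg, Tnfsf8, Tnfsf11 and Tnfsf14 were highest on the stimulated Th2 arrays, Lta was high in both stimulated states, and Ltb was highest in both resting states.

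Tnf encodes the founding member of the family, a proinflammatory cytokine. It measured 5.68, 5.43 and 4.46 in resting WT Th2 cells, the last value not above background, and 9.81, 9.19 and 9.96 after stimulation. In BAF180-deficient cells it went from 5.53, 6.14 and 5.04 to 9.79, 9.49 and 9.75. All 6 stimulated arrays lay well above all 6 resting arrays. The difference was 4.46 in WT (SE 0.32, 22.1-fold, limma adjusted p = 2.12e-09) and 4.11 in BAF180-deficient cells (17.3-fold, adjusted p = 8.46e-09).

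Tnfsf14 encodes LIGHT, which binds the herpesvirus entry mediator and the lymphotoxin beta receptor. Its brightest probe measured 5.10, 5.20 and 4.93 in resting WT Th2 cells and 9.86, 9.03 and 9.52 in stimulated ones. The BAF180-deficient arrays gave 5.17, 5.06 and 4.75 at rest and 9.36, 9.59 and 9.28 after stimulation, and the groups were far apart in both genotypes. The difference was 4.39 in WT (SE 0.20, 21.0-fold, adjusted p = 2.44e-12) and 4.42 in BAF180-deficient cells (21.3-fold, adjusted p = 3.53e-12). The other probes of Tnfsf14 were not detected in resting Th2 cells and rose at least 7.70-fold and at least 16-fold in WT, and at least 6.00-fold and 12-fold in BAF180-deficient cells (adjusted p of 9.88e-08 or lower). Such bounds set the mean of the bright group against the lowest signal detected on each array of the dim group.

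Tnfsf11 encodes RANKL, which drives osteoclast formation and supports dendritic cells. Resting WT Th2 cells gave 4.58, 4.49 and 4.46, of which only the first was above background, and stimulated cells 9.03, 8.68 and 8.81. In BAF180-deficient cells the values were 5.21, 4.73 and 4.93 at rest and 8.39, 8.10 and 7.98 after stimulation. The gene thus went from the edge of detection to a clear signal on every stimulated array. The difference was 4.33 in WT (SE 0.22, adjusted p = 1.43e-11), which is 20.1-fold as measured and 18.8-fold with the undetected resting arrays set at the lowest signal detected on each, and 3.20 in BAF180-deficient cells (9.18-fold, adjusted p = 1.5e-09).

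Fasl encodes the ligand of the death receptor Fas. In resting WT Th2 cells it measured 4.48, 4.22 and 4.76, with only the last above background, and in stimulated ones 8.12, 7.28 and 7.77. The BAF180-deficient values were 4.65, 4.65 and 4.60 at rest against 7.49, 7.74 and 6.98. The rise was 3.23 in WT (SE 0.32, 9.40-fold as measured and 8.34-fold with the undetected arrays at that lowest signal, adjusted p = 1.69e-07) and 2.77 in BAF180-deficient cells (6.82-fold, adjusted p = 1.68e-06). Every stimulated array lay above every resting array of either genotype.

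Tnfsf8 encodes CD30 ligand. Unlike Fasl it was detected on all resting Th2 arrays, at 6.80, 6.33 and 5.58 in WT and 6.88, 6.94 and 6.36 in BAF180-deficient cells. Stimulated cells gave 9.89, 8.93 and 9.38 in WT and 9.58, 9.65 and 8.96 in BAF180-deficient cells. The rise was 8.95-fold (log2 difference 3.16, SE 0.44, adjusted p = 1.49e-05) and 6.37-fold (2.67, adjusted p = 0.000118).

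Cd40lg encodes CD40 ligand, by which helper T cells license B cells and dendritic cells. Its probe was above background on the 6 stimulated Th2 arrays and on no other array, so its difference is given as a description. The stimulated values were 6.13, 6.10 and 6.22 in WT and 5.86, 5.93 and 5.90 in BAF180-deficient cells, against 4.18 to 4.32 in the resting Th2 cells, where it was not detected. The probe was at least 2.94-fold higher in stimulated than in resting WT Th2 cells and at least 2.50-fold higher in BAF180-deficient cells.

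Lta encodes lymphotoxin alpha, which forms a soluble homotrimer or a surface heterotrimer with lymphotoxin beta. It rose less than the ligands above. Resting WT Th2 cells gave 6.63, 6.16 and 5.66 and stimulated cells 7.40, 7.50 and 8.14. In BAF180-deficient cells the values were 6.68, 6.94 and 7.10 against 8.12, 7.80 and 7.65. The groups did not overlap, and the rise was 2.89-fold in WT (1.53, SE 0.23, adjusted p = 3.99e-05) and 1.93-fold in BAF180-deficient cells (0.95, adjusted p = 0.00447). A second Lta probe rose by 1.85 in WT (adjusted p = 0.000204) and measured 0.72 higher in BAF180-deficient cells, where it did not pass the test (adjusted p = 0.121).

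Ltb, the membrane-anchoring partner of lymphotoxin alpha, went the other way. WT Th2 cells gave 9.69, 9.42 and 9.64 at rest and 8.73, 9.15 and 7.75 after stimulation. BAF180-deficient cells gave 9.55, 9.62 and 9.62 at rest and 9.19, 8.56 and 7.89 after stimulation. The resting arrays were tightly grouped and the stimulated arrays scattered, with replicate C lowest in both genotypes. Ltb fell by 1.04 in WT (SE 0.35, adjusted p = 0.0305) and by 1.05 in BAF180-deficient cells (adjusted p = 0.0302). Without normalisation between arrays the WT call was lost (−0.71, adjusted p = 0.372). With no detection filter both calls were lost (adjusted p = 0.0743 and 0.0721), as was the WT call with only the arrays compared (adjusted p = 0.0607). The calls also rested on few arrays, since leaving out stimulated replicate C gave −0.64 in WT (adjusted p = 0.207) and −0.72 in BAF180-deficient cells (adjusted p = 0.17). Leaving out resting replicate A or C in WT also lost the call (−0.98, adjusted p = 0.0847, and −1.01, adjusted p = 0.0763), as did leaving out resting replicate A, B or C or stimulated replicate B in BAF180-deficient cells (−1.04 to −1.07, adjusted p = 0.066 to 0.0771).

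**Figure D2:**
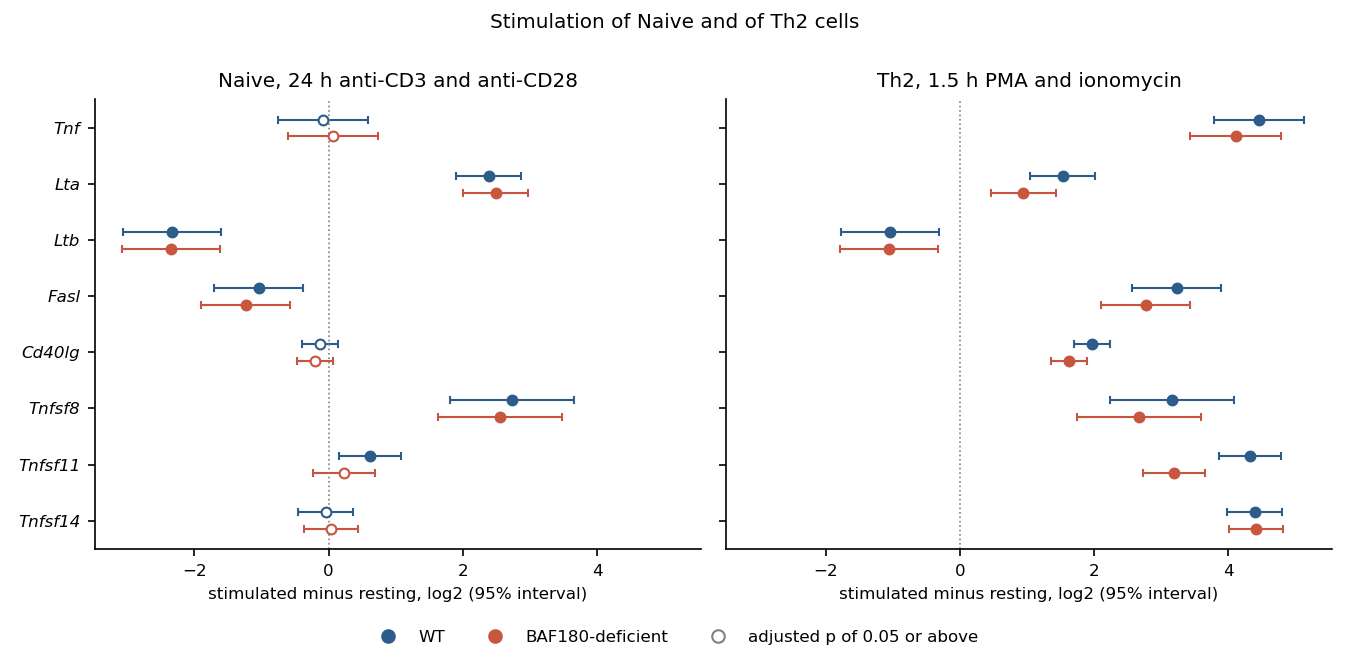
Stimulated minus resting log2 difference of each ligand with its 95% interval, for Naive cells on the left and Th2 cells on the right, in both genotypes; open points did not pass an adjusted p of 0.05. In Th2 cells 7 ligands lie right of 0 and Ltb left of it, whereas in Naive cells Lta and Tnfsf8 lie to the right and Ltb and Fasl to the left in both genotypes.

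After 24 h of anti-CD3 and anti-CD28 the Naive cells showed a mixed pattern. Of the 8 ligands 3 were called higher and 2 lower in WT, and 2 higher and 2 lower in BAF180-deficient cells. Over all probes 23.6% were called higher and 20% lower in WT and 22.3% and 19.3% in BAF180-deficient cells. The median difference of the 8 ligands was −0.06 in WT and 0.05 in BAF180-deficient cells, beside 0.01 and 0.02 over all probes. Without Cd40lg, which was not detected on Naive arrays, it was −0.05 and 0.07. Lta and Tnfsf8 rose and Ltb and Fasl fell in both genotypes.

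Lta was at the edge of detection in resting Naive cells, at 4.83, 5.03 and 5.27 in WT, the first not above background, and 5.03, 5.0 and 5.30 in BAF180-deficient cells. Stimulated Naive cells gave 7.67, 7.31 and 7.31 in WT and 7.98, 7.50 and 7.32 in BAF180-deficient cells. The difference was 2.38 in WT (SE 0.23, 5.22-fold, adjusted p = 6.59e-08) and 2.49 in BAF180-deficient cells (5.62-fold, adjusted p = 3.72e-08), with no overlap. The second probe gave 2.24 and 1.96 and was called in both genotypes.

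Tnfsf8 was above background on 1 of 3 resting Naive arrays in each genotype, with 4.16, 4.53 and 5.15 in WT and 4.72, 5.29 and 4.27 in BAF180-deficient cells. It measured 6.46, 7.84 and 7.73 in stimulated WT and 6.21, 8.04 and 7.69 in stimulated BAF180-deficient cells, where replicate A was the lowest of each group but still above every resting array. The difference was 2.73 in WT (SE 0.44, adjusted p = 4.06e-05) and 2.55 in BAF180-deficient cells (adjusted p = 8.96e-05). As measured these are 6.63-fold and 5.86-fold, and with the undetected resting arrays at the lowest signal detected on each they are 5.02-fold and 5.05-fold.

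Ltb was bright in resting Naive cells, at 9.28, 9.53 and 10.03 in WT and 9.42, 9.07 and 10.12 in BAF180-deficient cells. It dropped to 7.45, 7.25 and 7.14 in WT and to 7.64, 7.40 and 6.54 in BAF180-deficient cells. The fall of 2.33 in WT (SE 0.35, adjusted p = 1.52e-05) and 2.35 in BAF180-deficient cells (adjusted p = 1.52e-05) separated all arrays. Lta and Ltb, whose products share a heterotrimer, therefore moved in opposite directions on both stimulations. In Th2 cells, though, the call of the Ltb fall was lost in several settings, as given above.

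Fasl was detected in resting Naive cells at 7.11, 6.92 and 5.76 in WT and 6.76, 7.15 and 6.02 in BAF180-deficient cells, with replicate C low in both. Stimulated cells gave 5.68, 5.69 and 5.30 in WT and 5.77, 5.39 and 5.05 in BAF180-deficient cells, so that replicate C of the resting cells came close to the stimulated arrays. Fasl fell by 1.04 in WT (SE 0.32, adjusted p = 0.0114) and by 1.24 in BAF180-deficient cells (adjusted p = 0.00354). Without normalisation between arrays neither fall passed the test (−0.27, adjusted p = 0.489, and −0.50, adjusted p = 0.155), and the deposited intensities were 84.1, 87 and 68.2 in resting and 72.1, 69 and 70 in stimulated WT cells. The WT call was also lost with only the arrays compared (adjusted p = 0.0565) and without resting replicate A (−0.79, adjusted p = 0.0779) or B (−0.88, adjusted p = 0.0577) or stimulated replicate C (−0.91, adjusted p = 0.054).

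Tnf was already present in resting Naive cells. It measured 7.52, 7.53 and 6.86 in WT and 7.24, 7.79 and 6.96 in BAF180-deficient cells, and 7.58, 7.17 and 6.92 and 7.78, 7.32 and 7.08 after stimulation. These ranges overlapped, and the differences of −0.08 in WT (adjusted p = 0.875) and 0.07 in BAF180-deficient cells (adjusted p = 0.891) did not pass the test and had no stable sign across the alternative settings. The brightest probe of Tnfsf14 was likewise detected on all Naive arrays, at 5.42 to 5.93 in resting and 5.60 to 5.73 in stimulated WT cells, with differences of −0.05 and 0.03 that did not pass the test. Its other probes were each detected on 0 or 1 of 3 arrays in every Naive group. Cd40lg was not detected on any Naive array.

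Tnfsf11 was called higher in stimulated WT Naive cells (difference 0.62, adjusted p = 0.0289) and not in BAF180-deficient ones (0.24, adjusted p = 0.429). The WT arrays overlapped, with 4.20, 4.81 and 5.10 at rest, the first and second not above background, and 5.57, 5.56 and 4.83 after stimulation. The call was lost with an offset of 50 (0.30, adjusted p = 0.0594), on Z-scores (0.17, adjusted p = 0.128), with the 75th percentile (0.33, adjusted p = 0.169), without normalisation between arrays (0.69, adjusted p = 0.0712), with no detection filter (adjusted p = 0.0547) and with only the arrays compared (adjusted p = 0.157). It was also lost without resting replicate A (0.36, adjusted p = 0.206) and without stimulated replicate A or B (0.49 each, adjusted p = 0.12 and 0.124). The difference between the genotypes in this response did not pass its own test.

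The ligands differed in the order of their levels over the 4 states, although the WT means of Tnf and Fasl ran in the same order. So did those of Tnfsf14 by its brightest probe, but its resting and stimulated Naive means were close (5.70 and 5.65). Another Tnfsf14 probe, near background there, gave 4.42 and 4.52. Cd40lg was not detected outside stimulated Th2 cells, so its other states were not ranked. Tnf was highest in stimulated Th2 cells (9.66 ± 0.41 in WT, SD of 3 arrays), lower in resting Naive (7.30 ± 0.39) and stimulated Naive cells (7.22 ± 0.34), which did not differ beyond their spread, and lowest in resting Th2 cells (5.19 ± 0.64). Fasl ran from stimulated Th2 (7.72 ± 0.42) through resting Naive (6.60 ± 0.73) and stimulated Naive cells (5.56 ± 0.22) to resting Th2 cells (4.49 ± 0.27). For Tnfsf8 the order was stimulated Th2 (9.40 ± 0.48), stimulated Naive (7.35 ± 0.77), resting Th2 (6.24 ± 0.62) and resting Naive cells (4.62 ± 0.50). Lta was as high in stimulated Naive (7.43 ± 0.21) as in stimulated Th2 cells (7.68 ± 0.40) within their spread by its brightest probe, whereas its second probe gave 7.05 ± 0.34 and 7.94 ± 0.58. Ltb was as high in resting Th2 (9.58 ± 0.15) as in resting Naive cells (9.61 ± 0.39). Tnfsf11 and Tnfsf14 had high values in stimulated Th2 cells (8.84 ± 0.18 and 9.47 ± 0.42) and group means of 4.51 to 5.32 and 5.08 to 5.70 in the other WT groups.

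Between the resting states, 2 ligands were called higher and 3 lower in WT Th2 than in WT Naive cells, and 2 higher and 2 lower in BAF180-deficient cells, beside 18.4% and 16% of all probes in WT and 18.8% and 15.9% in BAF180-deficient cells. The median of the ligands was −0.20 in WT and −0.09 in BAF180-deficient cells, beside 0.03 over all probes in each. Without Cd40lg, which was not detected in either resting state, it was −0.19 and 0.06. Lta (1.1, adjusted p = 0.001, in WT and 1.80, adjusted p = 5.12e-06, in BAF180-deficient cells) and Tnfsf8 (1.62, adjusted p = 0.00748, and 1.96, adjusted p = 0.00172) were the ligands that rose. Tnf fell by 2.11 in WT (adjusted p = 3.36e-05) and by 1.76 in BAF180-deficient cells (adjusted p = 0.00025), and Fasl by 2.11 (adjusted p = 3.1e-05) and 2.01 (adjusted p = 5.61e-05). Without normalisation between arrays the fall of Tnf missed the threshold in WT (−1.14, adjusted p = 0.0713) and in BAF180-deficient cells (−0.59, adjusted p = 0.285). The WT call of Tnfsf8 was lost with an offset of 50 (0.91, adjusted p = 0.054). Tnfsf14 was called lower in WT (−0.62, adjusted p = 0.0175), but not without normalisation between arrays (0.01), with an offset of 50 (−0.35, adjusted p = 0.0759), with no background correction (−0.38, adjusted p = 0.059), on Z-scores (−0.20, adjusted p = 0.164) or with the mean of its probes (−0.39, adjusted p = 0.103). The call was also lost without resting Naive replicate A (−0.51, adjusted p = 0.0877) or resting Th2 replicate C (−0.55, adjusted p = 0.0704). In BAF180-deficient cells its difference was −0.50 (adjusted p = 0.0529), and it was called with the replicate letter as a block (adjusted p = 0.0462), with only the arrays compared (adjusted p = 0.0342) and with the 75th percentile (−0.51, adjusted p = 0.0448). Ltb did not pass the test (−0.03, adjusted p = 0.96, and 0.06, adjusted p = 0.915), but without normalisation between arrays it was called higher in BAF180-deficient resting Th2 cells (1.45, adjusted p = 0.0138).

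Between the stimulated states, 6 of the 7 ligands other than Cd40lg were higher in Th2 than in Naive cells and 0 lower, in both genotypes (7 of 8 with Cd40lg), beside 9.09% of probes called higher and 11% lower in WT and 9.35% and 11.2% in BAF180-deficient cells. The median difference of the 7 ligands was 2.16 in WT and 2.09 in BAF180-deficient cells, and with Cd40lg 2.11 and 2.04, beside −0.01 and −0.02 over all probes. Tnfsf14 stood 3.82 higher in WT (adjusted p = 2.57e-11) and 3.88 higher in BAF180-deficient cells (adjusted p = 2.17e-11), and Tnfsf11 3.52 (adjusted p = 6.83e-10) and 3.06 higher (adjusted p = 5.91e-09). Tnf was 2.43 and 2.28 higher, Fasl 2.16 and 2.00, Tnfsf8 2.05 and 2.09, and Cd40lg at least 2.83-fold and at least 2.40-fold. Without normalisation between arrays the call of Tnfsf8 was lost in BAF180-deficient cells (1.82, adjusted p = 0.0682). Ltb was 1.26 higher in WT (adjusted p = 0.0126) and 1.36 higher in BAF180-deficient cells (adjusted p = 0.00779). Its call was lost without normalisation between arrays in WT (1.47, adjusted p = 0.0656) and in BAF180-deficient cells (1.05, adjusted p = 0.211), and in the latter with only the arrays compared (adjusted p = 0.0604). It was also lost without stimulated Th2 replicate A (1.17, adjusted p = 0.0523) or B (0.96, adjusted p = 0.0883) in WT, and without stimulated Naive replicate C (1.03, adjusted p = 0.0574) or stimulated Th2 replicate A (1.03, adjusted p = 0.0642) in BAF180-deficient cells. Lta was the ligand that did not pass (0.25 in each genotype, adjusted p = 0.558 and 0.547). Its second probe stood 0.90 higher in WT (adjusted p = 0.061) and 0.77 higher in BAF180-deficient cells (adjusted p = 0.113), where its arrays did not overlap, and did not pass either. The agents and times differ between these groups, so the contribution of the stimulus and of the cell type cannot be told apart.

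The profiles of the ligands were correlated as a description over all 24 arrays, which share groups and platform. Tnfsf14 correlated with Cd40lg at 0.975 and with Tnfsf11 at 0.967, and Tnf with Fasl at 0.896. Cd40lg was kept only through the stimulated Th2 arrays and was at background on all others. Its correlation with genes high on those arrays was thus largely set in advance, and so was its place beside Tnfsf14 below. Lta correlated with Tnfsf8 at 0.861, and with its genomic neighbours Tnf and Ltb at 0.442 and −0.622. Among all genes tested, Csf2 (0.979), Ccl1 (0.978) and Hbegf (0.976) had the profiles most like Tnfsf11, and 1810009J06Rik (0.982), Cd40lg (0.975) and Dennd3 (0.975) those most like Tnfsf14. Pou2f2 (0.959), Gch1 (0.956) and Itgav (0.949) were most like Tnf, and Nfkbie (0.951), Kdm6b (0.947) and Camk2d (0.946) most like Fasl. For Tnfsf8 these were Mdfic (0.979), Ptger2 (0.964) and Eef1e1 (0.963), for Lta Pla2g12a (0.963), Snrpa (0.960) and Alg3 (0.959), and for Ltb Gse1 (0.937), Rac2 (0.936) and Itgb7 (0.936).

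The genotype comparison asked whether any ligand depended on BAF180. By the criteria of the study's methods, with p-values from limma, 0 of 8 ligands were called in any of the 4 states or in their mean. The share of all probes called was 0.681% in resting Naive, 0.112% in stimulated Naive, 0.0842% in resting Th2 and 0.0913% in stimulated Th2 cells, and 2.13% for the mean of the 4 states. At an unadjusted p under 0.05 there were 0 ligands in resting Naive, 0 in stimulated Naive, 1 in resting Th2 (Lta), 1 in stimulated Th2 (Tnfsf11) and 1 in the mean (Lta), beside 6.83%, 2.25%, 3.43%, 2.79% and 7.52% of probes in the 4 states and in their mean. Normalisation by Z-scores, which is that of the study's methods, called 1 ligand, Tnfsf11, in stimulated Th2 cells. The 95% intervals were wide, for example −0.65 to 0.69 for Tnf in stimulated Th2 cells and −0.73 to 0.73 for Ltb, so smaller changes were not detectable with 3 arrays a group.

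**Figure D3:**
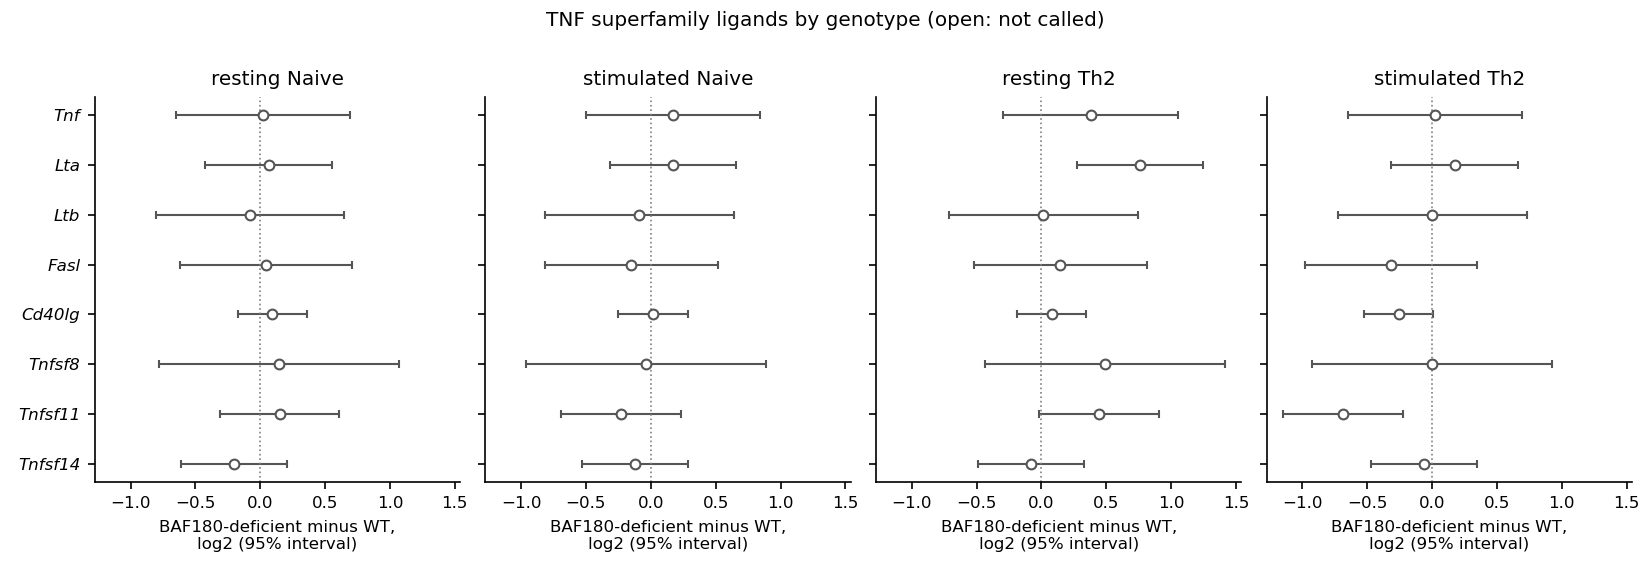
BAF180-deficient minus WT log2 difference of each tested ligand with its 95% interval, in a panel for each cell state. All points are open because none was called; the intervals of Lta in resting Th2 cells (0.27 to 1.25) and of Tnfsf11 in stimulated Th2 cells (−1.15 to −0.22) do not include 0.

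Tnfsf11 was lower on every BAF180-deficient than on every WT array of stimulated Th2 cells, with the values given above. The difference was −0.69 (SE 0.22, 95% interval −1.15 to −0.22, limma unadjusted p = 0.00558, adjusted p = 1.00), and arrays lay apart in either direction for 7.31% of all probes in this state. In resting Th2 cells the order was turned, with each BAF180-deficient array above each WT array and a difference of 0.44 (interval −0.02 to 0.91, unadjusted p = 0.058), in a range where the WT signal was at background. The stimulated difference was called with an offset of 50 in the background correction (−0.63, adjusted p = 0.0969) and on Z-scores (−0.45, adjusted p = 0.133), and its adjusted p ranged from 0.0969 to 1.00 over the alternatives. The response of Tnfsf11 to stimulation was smaller by 1.13 in BAF180-deficient cells (SE 0.31, interval −1.78 to −0.48, unadjusted p = 0.0017), which failed the correction over all probes (adjusted p = 1.00, and 0.47 to 1.00 over the alternatives).

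Lta was higher on every BAF180-deficient than on every WT array of resting Th2 cells. The difference was 0.76 (SE 0.23, interval 0.27 to 1.25, unadjusted p = 0.00403, adjusted p = 0.759), and arrays lay apart in either direction for 10.1% of all probes. The second probe gave 6.87, 6.24 and 5.18 in WT and 7.08, 6.93 and 7.25 in BAF180-deficient cells, again apart, with a difference of 0.99 (unadjusted p = 0.0067, adjusted p = 1.00). Over the 4 states the mean difference of Lta was 0.29 (interval 0.05 to 0.54, unadjusted p = 0.0214, adjusted p = 0.492). With a block for each lettered pair of arrays within a state it was called (0.29, adjusted p = 0.299), as it was without resting Th2 WT replicate A or stimulated Th2 WT replicate C.

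Cd40lg was lower on all 3 BAF180-deficient arrays of stimulated Th2 cells by 0.26 (interval −0.52 to 0.01, unadjusted p = 0.0592, adjusted p = 1.00). For the other ligands the genotypes overlapped in every state. The change of response with genotype passed an adjusted p of 0.05 for 0 of 8 ligands in Naive cells, in Th2 cells and between the resting states (limma), beside 0.00702%, 0% and 0.00702% of probes. At an unadjusted p under 0.05 these were 0, 1 (Tnfsf11) and 1 (Lta), beside 2.31%, 1.8% and 2.72% of probes. In the Th2 response 7 of the 8 differences lay below 0, that is, the response was numerically smaller in BAF180-deficient cells. Their median was −0.41 beside −0.00 over all probes. Cd40lg could enter only through the stimulated Th2 arrays, and without it the median of the 7 ligands left was −0.46. These 8 differences come from the same 12 arrays and were not tested as a group.

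Of 8 other ligands of the superfamily on the array 4 were tested. In Naive cells stimulation raised 1 of the 4 and lowered 0 in each genotype (limma, adjusted p under 0.05), and in Th2 cells it raised 2 and lowered 1. Of all probes 23.6% were called higher and 20% lower in WT and 22.3% and 19.3% in BAF180-deficient Naive cells. In Th2 cells these shares were 13% and 14.3% in WT and 12% and 13.8% in BAF180-deficient cells. Stimulation of Th2 cells raised Cd70 (the ligand of CD27) at least 4.74-fold in WT (adjusted p = 2.77e-08) and at least 3.37-fold in BAF180-deficient cells (adjusted p = 4.82e-07). It raised Tnfsf9 (4-1BB ligand) by 1.48 (adjusted p = 2.85e-06) and 1.26 (adjusted p = 2.34e-05), so that all 3 neighbouring ligands Tnfsf9, Cd70 and Tnfsf14 rose. Tnfsf13b (BAFF, a survival factor of B cells) went the other way, at least 2.14-fold and at least 2.62-fold lower (adjusted p = 0.000474 and 8.65e-05). None of the 4 was called between genotypes.

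Receptors on the same arrays let the ligands be set beside the genes that receive them. Of the 10 receptors of the 9 ligands 8 were tested, and stimulation of Th2 cells raised 1 in WT and 3 in BAF180-deficient cells and lowered 0 in both. Beside these counts and those of the further receptors below stand the shares of all probes, which in Th2 cells were 13% higher and 14.3% lower in WT and 12% and 13.8% in BAF180-deficient cells, and in Naive cells 23.6% and 20% in WT and 22.3% and 19.3% in BAF180-deficient cells. Fas, the receptor of Fas ligand, was the gene that rose in both, by 0.99 (adjusted p = 0.00792) and 0.92 (adjusted p = 0.0137). In Naive cells 2 receptors were called higher and 2 lower in WT, and 2 and 1 in BAF180-deficient cells. Cd40, the receptor of CD40 ligand and a gene best known from B cells and myeloid cells, rose on stimulation of Naive cells by 1.93 (adjusted p = 0.000301) and 1.70 (adjusted p = 0.00101), and its difference between stimulated Th2 and stimulated Naive cells was −3.55 in WT and −3.69 in BAF180-deficient cells. Tnfrsf11a, the receptor RANK, was detected in resting Naive cells and was at least 1.93-fold lower after stimulation in WT (adjusted p = 5.6e-06) and at least 1.76-fold lower in BAF180-deficient cells (adjusted p = 3.86e-06). The B cell and myeloid values of the resting Naive arrays given above stand beside these results too. Of 16 further receptors of the superfamily tested, stimulation of Th2 cells raised 4 and lowered 1 in WT, and raised 4 and lowered 3 in BAF180-deficient cells. Tnfrsf9 (4-1BB, the receptor of Tnfsf9) rose by 2.04 (adjusted p = 0.00136) and 2.13 (adjusted p = 0.00106), and Tnfrsf18 (GITR) fell by 1.04 (adjusted p = 0.0262) and 1.26 (adjusted p = 0.00838). In Naive cells stimulation raised 2 of the 16 and lowered 5 in WT, and raised 1 and lowered 4 in BAF180-deficient cells, with Tnfrsf21 (death receptor 6) falling by 2.35 (adjusted p = 2.13e-07) and 2.25 (adjusted p = 3.93e-07). None of these receptors was called between genotypes (limma).

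**Figure D4:**
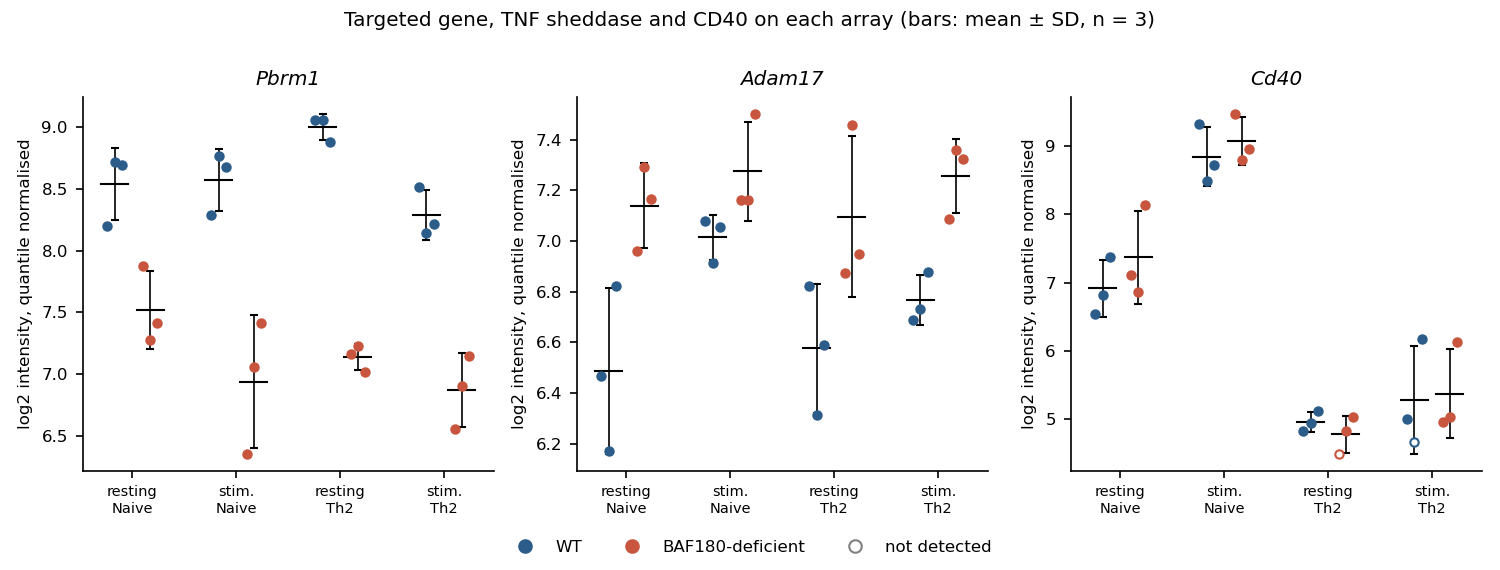
Log2 intensity of Pbrm1 (the targeted gene), Adam17 (the TNF-releasing protease) and Cd40 on each array, by cell state and genotype; bars and whiskers give the mean and SD of 3 arrays, open points were not detected, and the vertical axes differ and do not start at 0. Pbrm1 is lower and Adam17 higher on every BAF180-deficient array than on the WT arrays of the same state, and Cd40 is highest in stimulated Naive cells.

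Of 18 adaptors and death proteins tested, 3 were called higher and 9 lower in stimulated than in resting WT Naive cells, and 3 higher and 4 lower in stimulated than in resting WT Th2 cells. In BAF180-deficient cells these counts were 2 and 9, and 4 and 5. The shares of all probes were 23.6% higher and 20% lower in WT and 22.3% and 19.3% in BAF180-deficient Naive cells, and 13% and 14.3%, and 12% and 13.8%, in Th2 cells. Traf1, a TRAF protein induced by NF-kB, rose by 1.6 and 1.49 in Th2 cells, and Birc2, the ubiquitin ligase cIAP1, fell by 1.71 and 1.53 in Naive cells. Ripk1, a kinase of TNF receptor signalling, fell by 1.04 and 0.79 in Th2 cells. Of the 5 proteases and mRNA regulators tested, stimulation raised 1 and lowered 2 in WT Naive cells, raised 0 and lowered 3 in BAF180-deficient Naive cells, and in Th2 cells raised 1 in WT and 2 in BAF180-deficient cells and lowered 0. Zfp36 (tristetraprolin, which promotes decay of Tnf mRNA) fell by 3.81 in WT and 3.71 in BAF180-deficient Naive cells after stimulation, while Tnf itself did not change detectably there.

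Adam17, the protease that releases TNF from the cell surface, was among the 5 tested genes of the list of proteases and mRNA regulators, and it was higher in BAF180-deficient cells. It measured 6.47, 6.17 and 6.82 in WT and 6.96, 7.29 and 7.17 in BAF180-deficient resting Naive cells. In stimulated Th2 cells it measured 6.69, 6.73 and 6.88 in WT and 7.09, 7.36 and 7.33 in BAF180-deficient cells. The genotypes did not overlap in any of the 4 states, a separation seen in either direction for 7.99%, 6.46%, 10.1% and 7.31% of all probes in resting Naive, stimulated Naive, resting Th2 and stimulated Th2 cells. The mean difference over the states was 0.48 (SE 0.09, interval 0.30 to 0.67, adjusted p = 0.0148) and was called, but without normalisation between arrays it was not (0.54, adjusted p = 0.999). Within states it was called in resting Naive cells (0.65, adjusted p = 0.263). That call was lost on Z-scores (0.35), with the 75th percentile (0.62, adjusted p = 0.404), and with normalisation within the cell state, no normalisation between arrays or only the arrays compared (adjusted p = 1.00 in each, as on Z-scores). It was also lost without WT replicate A (0.64, adjusted p = 0.308) or B (0.50, adjusted p = 0.453) or BAF180-deficient replicate B (0.58, adjusted p = 0.529) or C (0.64, adjusted p = 0.336). In stimulated Naive, resting Th2 and stimulated Th2 cells it was 0.26, 0.52 and 0.49 higher and not called. Traf5, an adaptor of several receptors of the family, was lower in BAF180-deficient resting Naive cells, with 6.05, 6.03 and 6.05 in WT against 5.14, 5.46 and 5.38 (−0.72, adjusted p = 0.0978). This call was lost on Z-scores (−0.26, adjusted p = 0.493), with normalisation within the cell state (−0.52), without normalisation between arrays (−0.47), with only the arrays compared (adjusted p = 1.00 in each of these 3) and at an adjusted p below 0.05. The mean difference of Traf5 over the 4 states was −0.30 (limma, adjusted p = 0.133) and was also called. That call was lost without normalisation between arrays (−0.23) and at an adjusted p below 0.05.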

How the data were processed

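RNA of CD4+ T cells in 4 states and 2 genotypes was hybridised to 24 Illumina arrays, 3 per group. The authors deposited non-normalised probe intensity values with a detection p-value for each, exported from GenomeStudio 1.6.0 per the labels, without the background or normalisation steps of their methods. In place of the Z-scores of those methods, which were run as an alternative, the neqc function of limma 3.58.1 in R 4.3.3 estimated the background from the detection p-values, added 16, took log2 and equalised the quantiles over arrays. Median deposited intensity was 40.6 to 48.9, and the number of arrays limits the precision. Probes with a detection p-value of 0.02 or lower on at least 1 array were kept (14246 of 25697), and each gene was represented by its brightest probe. limma fitted 8 group means to all arrays (16 residual degrees of freedom), and Benjamini-Hochberg adjustment ran over all kept probes. Differences between states and interactions were called at an adjusted p below 0.05. Differences between genotypes were called by the criteria of the methods, that is a Z-ratio beyond 1.5, a false discovery rate below 0.3, p below 0.05 and a mean signal above background. All named ligands, receptors and adaptors come from fixed lists, and the text gives the counts on stimulation and examples from each list. The ligands and lists were chosen with earlier results of these data known. Replicate letters were read as pairs because the study used pairs of mice, and the deviations of same-lettered arrays correlated at 0.301 for A, 0.136 for B and 0.516 for C over the 4 states. The fit and the call rules were run on simulated log2 values with known differences and independent noise. Background correction, normalisation and the detection filter were not part of that simulation. Promoter sequences are from RefSeq (GRCm38.p6). Genes of the lists that the deposited table did not name were not analysed here.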

Additional observations from a re-analysis of the deposited data

How the results depend on the processing

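The counts of called ligands were recomputed under alternative background, scaling, filter, probe, fit and call settings, and 181 of 188 stayed within 1.5 times; leaving out 1 array kept 129 of 132. In stimulated against resting WT Naive cells the count of 5 became 3 when only the arrays compared were fitted and with no normalisation between arrays, and it ran from 3 to 5 with 1 array left out. In resting Th2 against resting Naive WT cells the count of 5 became 3 with an offset of 50 and with no normalisation between arrays. Between genotypes in stimulated Th2 cells the count of 0 became 1 with an offset of 50 and on Z-scores, and in the mean of the 4 states it ran from 0 to 1 with 1 array left out. The causes were not tested. No normalisation between arrays and scaling to the 75th percentile were chosen after seeing the data. Without normalisation the median of all probes itself moved by 0.26 in WT and 0.30 in BAF180-deficient cells for stimulated against resting Naive, by 0.36 and 0.64 for resting Th2 against resting Naive and by −0.24 for stimulated against resting BAF180-deficient Th2 cells; with the 75th percentile the Naive contrasts moved by −0.17 and −0.14 and the resting contrasts by −0.12 and −0.11. The rise of Lta in BAF180-deficient Th2 cells missed the threshold without normalisation (0.34, adjusted p = 0.675).

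The signs that changed all belonged to small differences, apart from those with no normalisation between arrays. For stimulated against resting Naive WT cells Tnf became 0.11 on Z-scores and 0.87 without normalisation, and Tnfsf14 became 0.0212 and 0.52. Tnfsf14 became −0.0696 in BAF180-deficient Naive cells with the 75th percentile. For resting Th2 against resting Naive cells and without normalisation, Ltb became 0.95 and Tnfsf14 0.00915 in WT, and in BAF180-deficient cells Tnfsf14 became 0.25. Ltb kept its sign in those BAF180-deficient cells but was called (1.45, adjusted p = 0.0138). In the same comparison of BAF180-deficient cells Tnfsf11 became −0.00595 on Z-scores and −0.0376 with the 75th percentile. Lta became −0.0567 in BAF180-deficient stimulated Th2 against stimulated Naive cells without normalisation. With 1 array left out, stimulated against resting Naive values of Tnf ran from −0.30 to 0.0739 in WT and from −0.13 to 0.30 in BAF180-deficient cells, and those of Tnfsf14 from −0.18 to 0.0711 and from −0.17 to 0.20. Resting Th2 against resting Naive values of Ltb ran from −0.20 to 0.18 in WT and from −0.17 to 0.36 in BAF180-deficient cells, and those of Tnfsf11 from −0.44 to 0.00569 and from −0.0224 to 0.22.

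With the replicate letter as a block, the call that changed was Tnfsf14 in BAF180-deficient resting Th2 against resting Naive cells (−0.50, adjusted p = 0.0462 in place of 0.0529). With a replicate block within each state, the count of ligands called in the mean of the 4 states rose from 0 to 1, which was Lta (0.29, adjusted p = 0.299). Pairing changed no other call among the ligands.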
